A study of Mus musculus with 53 samples.

Results

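The carriers that move bile acids, bilirubin conjugates and other organic anions through the hepatocyte were examined in mouse liver tumors and healthy liver. The set holds 10 genes chosen by symbol, of 19057 genes with a named probe on the array: the uptake carriers Slco1a1, Slco1a4, Slco1b2, Slco2b1 and Slc10a1, the canalicular exporters Abcb11, Abcb4 and Abcc2, and the basolateral exporters Abcc3 and Abcc4. Each gene was read from its probe with the highest mean signal over the liver arrays. Illumina bead arrays were used on 53 labelled samples of a B6-129Sv mixed strain background, 52 of which have signals. The tumors were 20 p53 f/f liver tumors of 15 animals (Mad2f/f p53f/f Alb-Cre+) and 8 p53 f/+ liver tumors of 5 animals (Mad2f/f p53f/+ Alb-Cre+), set against 10 wild type healthy livers. The thymic samples were 9 T-ALLs (Mad2f/f p53f/f Lck-Cre+) and 5 wild type healthy thymi. Cre driven by the albumin promoter acts in hepatocytes, and Cre driven by the Lck promoter in developing T cells. Ages were not given in the sources used here, and the wild type livers carry neither Cre nor floxed alleles, so the effects of Mad2, of p53 and of tumor formation cannot be told apart.

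Hepatocytes take up bile acids and organic anions from sinusoidal blood and secrete them across the canalicular membrane into bile. The Slco genes encode sodium-independent organic anion transporting polypeptides, and Slc10a1 encodes the sodium-dependent bile acid carrier Ntcp. Abcb11 encodes the bile salt export pump, Abcb4 moves phosphatidylcholine into bile, and Abcc2 exports bilirubin glucuronides and other conjugates. Abcc3 and Abcc4 sit on the basolateral membrane and return conjugates and bile acids to the blood, a route known to gain weight when bile flow is blocked.

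All levels below are log2 values after background correction and quantile normalization, and each compares 1 probe between samples. The share of probes detected ranged over 34.3 to 39.3% on p53 f/f tumor arrays, 28.3 to 37.5% on p53 f/+ tumor arrays and 30.6 to 38.9% on healthy liver arrays. The array labelled healthy liver 1 stood apart from the others. Across 11567 genes it correlated at 0.85 with the average tumor and at 0.748 with the average of livers 2 to 10, whose own lowest value against the remaining livers was 0.851. Its Igf2 value was 11.55 and its Mup3 value 4.68, against 6.26 to 8.22 for Igf2 and 14.32 to 15.45 for Mup3 in healthy livers 2 to 10. The fits of the members in liver are therefore given with and without it. The levels of Mad2l1, the targeted checkpoint gene, were 6.15 to 9.15 in p53 f/f tumors, 5.70 to 6.78 in p53 f/+ tumors and 4.80 to 7.42 in healthy livers. Their medians were 7.62, 6.44 and 6.70, and the ranges overlapped. The gene was called higher in p53 f/f tumors (1.10 ± 0.29, limma adjusted p = 0.00437) and not called in p53 f/+ tumors (-0.35 ± 0.37, 0.571). In T-ALL, which also carry Mad2f/f, Mad2l1 averaged 5.67 against 10.33 in healthy thymus (-4.67 ± 0.34, limma adjusted p = 2.97e-08). All 9 T-ALLs were below all 5 thymi. Probes were chosen separately for liver and thymus, and whether they lie in the floxed part was not determined. Liver tumor 13, a p53 f/+ tumor, was dim. All tumor comparisons share the same healthy livers. Nothing in the labels says that the healthy livers came from separate animals, so p-values measure the spread between these samples.

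In the liver tumors, 3 uptake carriers were lower and 1 basolateral exporter was higher. Slco1b2 was lower by 1.76 ± 0.60 on the log2 scale (SE, 28 tumors against 10 livers), Slco2b1 by 1.55 ± 0.35 and Slco1a4 by 1.44 ± 0.38, while Abcc4 was higher by 2.91 ± 0.57. The canalicular exporters Abcb11, Abcb4 and Abcc2 and the basolateral exporter Abcc3 did not pass the test over all arrays. Of the 9 members tested, 4 were called lower and 1 higher at a limma adjusted p-value under 0.05, where 14.2% of all 11567 genes tested were called lower and 14.7% higher. Without healthy liver 1 the calls were 5 lower and 1 higher, against 19% and 19.6% of all genes. The added call was Abcb11. The fourth call in the lower direction over all arrays was Slc10a1, whose probe lay at the edge of detection and is described apart. In bulk tissue, fewer cells of a type and less RNA per cell cannot be told apart.

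**Figure D1:**
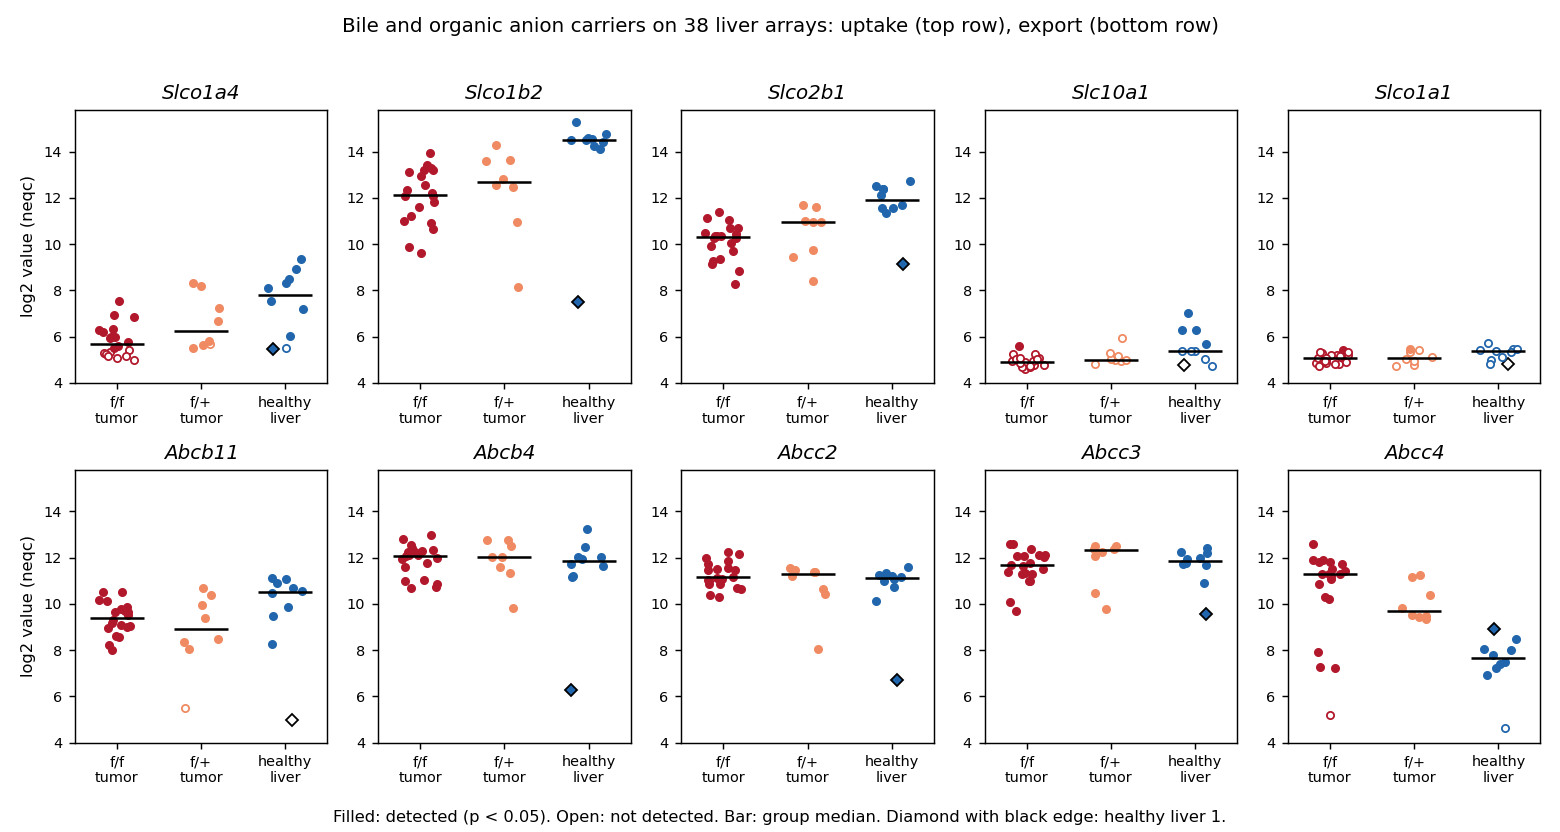
Log2 value (vertical axis, after neqc) of each carrier on the 38 liver arrays, with p53 f/f tumors, p53 f/+ tumors and healthy livers from left to right. Bars are group medians, open points were not detected, and the diamond is healthy liver 1. Slco1b2 and Slco2b1 are low in nearly all tumors against healthy livers 2 to 10, Abcc4 is high in 24 of 28 tumors, and the other exporters overlap between the groups.

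Slco1b2 encodes the main organic anion transporting polypeptide of mouse hepatocytes, a carrier of bile acids, bilirubin glucuronides and many drugs. Its level had a lowest value of 9.61, a median of 12.14 and a highest value of 13.93 in p53 f/f tumors. In p53 f/+ tumors these were 8.17, 12.68 and 14.27, and in healthy livers 7.49, 14.48 and 15.27. The value of 7.49 was healthy liver 1, and livers 2 to 10 lay between 14.09 and 15.27. All 20 p53 f/f tumors and 7 of 8 p53 f/+ tumors were below livers 2 to 10, the exception being liver tumor 15 at 14.27. Over all arrays Slco1b2 was 3.38-fold lower in liver tumors (limma adjusted p = 0.0252), and without healthy liver 1 it was 5.47-fold lower, a log2 difference of -2.45 ± 0.47 (adjusted p = 7.95e-05). The call over all arrays was lost without healthy liver 5 (adjusted p = 0.0515). The other kept probe of the gene, detected on 34 of 38 liver arrays, averaged 7.07 in tumors and 9.25 in healthy livers.

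Slco2b1 encodes a carrier of steroid sulfates and drugs on the sinusoidal membrane. Its lowest, median and highest values were 8.27, 10.30 and 11.40 in p53 f/f tumors and 8.39, 10.96 and 11.69 in p53 f/+ tumors, against 9.14, 11.91 and 12.73 in healthy livers. Healthy livers 2 to 10 began at 11.33, and all of them were above 19 of the 20 p53 f/f tumors and above 6 of the 8 p53 f/+ tumors. The tumor level was 2.93-fold lower over all arrays (limma adjusted p = 0.000905) and 3.57-fold lower without healthy liver 1 (adjusted p = 1.94e-05).

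Slco1a4 encodes a carrier of bile acids and cardiac glycosides that is known to be higher in female than in male mouse liver. It was detected in 12 of 20 p53 f/f tumors, 7 of 8 p53 f/+ tumors and 9 of 10 healthy livers. Its lowest, median and highest values were 5.00, 5.67 and 7.52 in p53 f/f tumors and 5.52, 6.23 and 8.34 in p53 f/+ tumors, against 5.47, 7.81 and 9.36 in healthy livers. These ranges overlap, since healthy livers 1, 3 and 5 had 5.47, 5.52 and 6.03. The difference of -1.44 ± 0.38 was called over all arrays (limma adjusted p = 0.00398) and was -1.66 ± 0.37 without healthy liver 1 (adjusted p = 0.000485). Sex was not labelled. Xist, the transcript of the inactive X chromosome in females, was detected in 6 of 20 p53 f/f tumors, 2 of 8 p53 f/+ tumors and 6 of 10 healthy livers. Within livers 2 to 10, Slco1a4 lay at 8.09 to 9.36 in the 5 livers with Xist detected and at 5.52 to 7.53 in the 4 livers without it. With detection of Xist as a covariate the tumor difference was -1.29 ± 0.39 (adjusted p = 0.0135). In that fit over tumors and livers the Xist term itself was not called for Slco1a4 (0.48 ± 0.36, limma adjusted p = 0.91). Without healthy liver 1, which had Xist detected and Slco1a4 at 5.47, the term was 0.61 ± 0.34 (0.814).

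The promoters of Slco1b2, Slco2b1 and Abcc4 are shown because these are the members with the largest called differences. They are RefSeq sequences of the GRCm38.p6 build, 300 bases each, with 250 bases before the annotated start, written 5′ to 3′ on the strand of the gene. For Slco2b1 and Abcc4 the first listed of several starts is given. Of the 10 members, 9 have such sequences, 13 in all, and Abcc3 is named only. Capitals mark matches, on either strand, to GTTAAT (a half-site of the hepatocyte factor HNF1), AGGTCA (a nuclear receptor half-site) or TGACNNNGC (the core of the antioxidant response element), and none of the marked matches overlap.
Slco1b2, chr6:141629268-141629567, plus strand: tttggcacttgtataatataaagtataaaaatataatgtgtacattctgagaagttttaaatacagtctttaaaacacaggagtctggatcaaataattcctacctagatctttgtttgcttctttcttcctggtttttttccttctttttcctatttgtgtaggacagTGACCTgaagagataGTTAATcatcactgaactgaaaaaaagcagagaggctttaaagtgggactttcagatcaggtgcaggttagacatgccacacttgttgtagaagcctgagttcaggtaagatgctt
Slco2b1, chr7:99711291-99711590, minus strand: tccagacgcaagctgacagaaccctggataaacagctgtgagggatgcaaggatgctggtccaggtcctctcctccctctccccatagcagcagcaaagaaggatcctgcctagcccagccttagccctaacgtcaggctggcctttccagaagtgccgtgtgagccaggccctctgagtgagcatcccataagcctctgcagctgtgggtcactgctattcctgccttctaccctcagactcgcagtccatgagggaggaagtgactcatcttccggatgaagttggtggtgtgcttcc
Abcc4, chr14:118706170-118706469, minus strand: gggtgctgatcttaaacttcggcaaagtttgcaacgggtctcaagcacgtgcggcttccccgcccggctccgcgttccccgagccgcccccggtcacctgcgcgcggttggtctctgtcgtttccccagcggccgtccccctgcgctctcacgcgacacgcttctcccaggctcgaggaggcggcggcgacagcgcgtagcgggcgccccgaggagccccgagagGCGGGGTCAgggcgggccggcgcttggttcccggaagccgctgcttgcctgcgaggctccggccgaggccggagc
GTTAAT was found in 7.1% of 32851 RefSeq promoters of this length and, among the 13 member promoters, in 1, that of Slco1b2. AGGTCA was found in 16.3% of all promoters and in 5 of the members' (Slco1a1, Slco1b2, Slc10a1, Abcb11 and Abcc2). TGACNNNGC was found in 12.4% of all promoters and in 3 of the members' (Abcc2 and both of Abcc4). The Slco2b1 promoters held none of the 3 motifs. A match describes letters in a window and is not evidence of a bound factor.

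The remaining uptake carriers, Slc10a1 and Slco1a1, were at or under the detection limit of their probes, although both are known as abundant hepatocyte genes in mouse. Slc10a1 was detected in 1 of 20 p53 f/f tumors, no p53 f/+ tumor and 4 of 10 healthy livers, exactly the minimum of 5 arrays for a test. Its highest values were 5.61 in p53 f/f tumors, 5.96 in p53 f/+ tumors and 7.04 in healthy livers, and most livers lay among the tumors. The fitted difference of -0.60 ± 0.16 (limma adjusted p = 0.00512) rests on those 4 livers, without which the gene would not have been tested, so it adds little to the account of uptake. Slco1a1 was detected in 2 of 28 tumors and in none of the 10 healthy livers, and it was not tested. The probes of these genes thus say little about either carrier.

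Among the canalicular exporters, the tumors and livers overlapped for every gene. Abcb11 had 8.01, 9.39 and 10.50 as lowest, median and highest value in p53 f/f tumors and 5.51, 8.93 and 10.69 in p53 f/+ tumors, against 4.97, 10.51 and 11.13 in healthy livers. The low end was liver tumor 13 in the tumors and healthy liver 1 in the livers. Its difference was -0.55 ± 0.47 over all arrays (95% interval -1.50 to 0.40, limma adjusted p = 0.4). It was -1.07 ± 0.38 without healthy liver 1 (adjusted p = 0.0226), so the call for the bile salt export pump depends on that array.

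Abcb4 had 10.67, 12.09 and 12.98 as lowest, median and highest value in p53 f/f tumors, 9.84, 12.01 and 12.77 in p53 f/+ tumors and 6.27, 11.84 and 13.24 in healthy livers. Abcc2 had 10.31, 11.14 and 12.22 in p53 f/f tumors, 8.05, 11.29 and 11.56 in p53 f/+ tumors and 6.70, 11.10 and 11.59 in healthy livers. In both genes healthy liver 1 was the low extreme and the group medians lay close together. Without it, the tumor difference was -0.07 ± 0.28 for Abcb4 (95% interval -0.63 to 0.49, adjusted p = 0.856) and 0.08 ± 0.26 for Abcc2 (-0.45 to 0.61, adjusted p = 0.843). With it, the differences were 0.49 ± 0.42 and 0.51 ± 0.35, and neither passed the test. These intervals leave room for changes of about the size of the bounds given. For Abcc2, 5 of 20 p53 f/f tumors lay above all 10 livers and 0 below them. Under median scaling Abcc2 was called higher in p53 f/f tumors (1.01 ± 0.40, limma adjusted p = 0.0446), where the median gene difference was 0.31.

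The basolateral exporters differed from each other in their call. Abcc3 had 9.67, 11.66 and 12.60 as lowest, median and highest value in p53 f/f tumors and 9.76, 12.30 and 12.49 in p53 f/+ tumors, against 9.56, 11.86 and 12.40 in healthy livers. Its difference was -0.02 ± 0.31 over all arrays (95% interval -0.64 to 0.60, limma adjusted p = 0.975) and -0.25 ± 0.29 without healthy liver 1 (adjusted p = 0.524).

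Abcc4, which in mouse liver is a known target of the receptor CAR and of Nrf2, was the member with the largest difference. It had 5.18, 11.27 and 12.60 as lowest, median and highest value in p53 f/f tumors and 9.34, 9.67 and 11.27 in p53 f/+ tumors, against 4.64, 7.64 and 8.93 in healthy livers. In 16 of 20 p53 f/f tumors and in all 8 p53 f/+ tumors it lay above all 10 healthy livers. Healthy liver 1 was the highest of the livers at 8.93, so its removal widened the gap. The tumor level was 7.50-fold higher over all arrays (limma adjusted p = 0.000226) and 8.33-fold higher without healthy liver 1 (adjusted p = 9.93e-05).

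The tumor genotypes were then taken apart. In p53 f/f tumors, 4 members were called lower and 1 higher, with and without healthy liver 1. The share of all genes called was 14.1% lower and 15% higher over all arrays, and 18.6% and 19.2% without that liver. The members were Slco1b2 at -1.81 ± 0.63 (adjusted p = 0.0281), Slco2b1 at -1.66 ± 0.36 (0.000744), Slco1a4 at -1.66 ± 0.40 (0.00173) and Slc10a1 on the lower side, and Abcc4 at 3.04 ± 0.60 (0.000233) on the higher side. The Slco1b2 call in p53 f/f tumors was lost without healthy liver 4 (adjusted p = 0.0512) and without healthy liver 5 (0.0546), and without healthy liver 1 its difference was -2.51 ± 0.49 (adjusted p = 0.000108). The others without that liver were Slco2b1 at -1.94 ± 0.33 (1.68e-05), Slco1a4 at -1.88 ± 0.39 (0.000205) and Abcc4 at 3.19 ± 0.62 (0.000105). Slc10a1 was at -0.76 ± 0.17 there (0.000552). It was tested only because its probe was detected in 4 healthy livers, so its place among the 4 lower members adds little.

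In p53 f/+ tumors only Abcc4 was called over all arrays, at 2.57 ± 0.76 (limma adjusted p = 0.02), where 7.65% of genes were called higher and 5.04% lower. That call was lost without liver tumor 18 (adjusted p = 0.0507). Slco2b1 was at -1.28 ± 0.46 (adjusted p = 0.0581) and Slco1b2 at -1.62 ± 0.79 (0.174). Without healthy liver 1 the calls became 1 higher and 3 lower, against 13.4% and 11.6% of all genes. They were Abcc4 at 2.73 ± 0.77 (0.00792), Slco1b2 at -2.31 ± 0.60 (0.00471), Slco2b1 at -1.56 ± 0.41 (0.00467) and Abcb11 at -1.47 ± 0.49 (0.0247). Slco1a4 was at -1.11 ± 0.48 there and not called (adjusted p = 0.0824).

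The difference between the genotypes was tested directly, and no member was called in p53 f/f against p53 f/+ tumors. The lowest unadjusted p among the members was 0.0969, for Slco1a4. Over all genes 0.138% were called higher and 0.337% lower. Abcc4 differed by 0.47 ± 0.68 (95% interval -0.91 to 1.85, limma adjusted p = 0.814), although the median of the p53 f/f tumors was higher. Slco1a4 differed by -0.76 ± 0.45 (adjusted p = 0.442) and Slco1b2 by -0.19 ± 0.71 (0.939). No member was called without healthy liver 1 either, with a lowest unadjusted p of 0.0727 for Slco1a4 (-0.77 ± 0.42, adjusted p = 0.342), where 0.761% of genes were called higher and 1.31% lower. Within the 2 chips that held both genotypes, the mean difference for Abcc4 was 1.59 on one and -0.75 on the other, and for Slco1a4 -0.75 and -0.80. The intervals above do not show that the genotypes are alike.

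**Figure D2:**
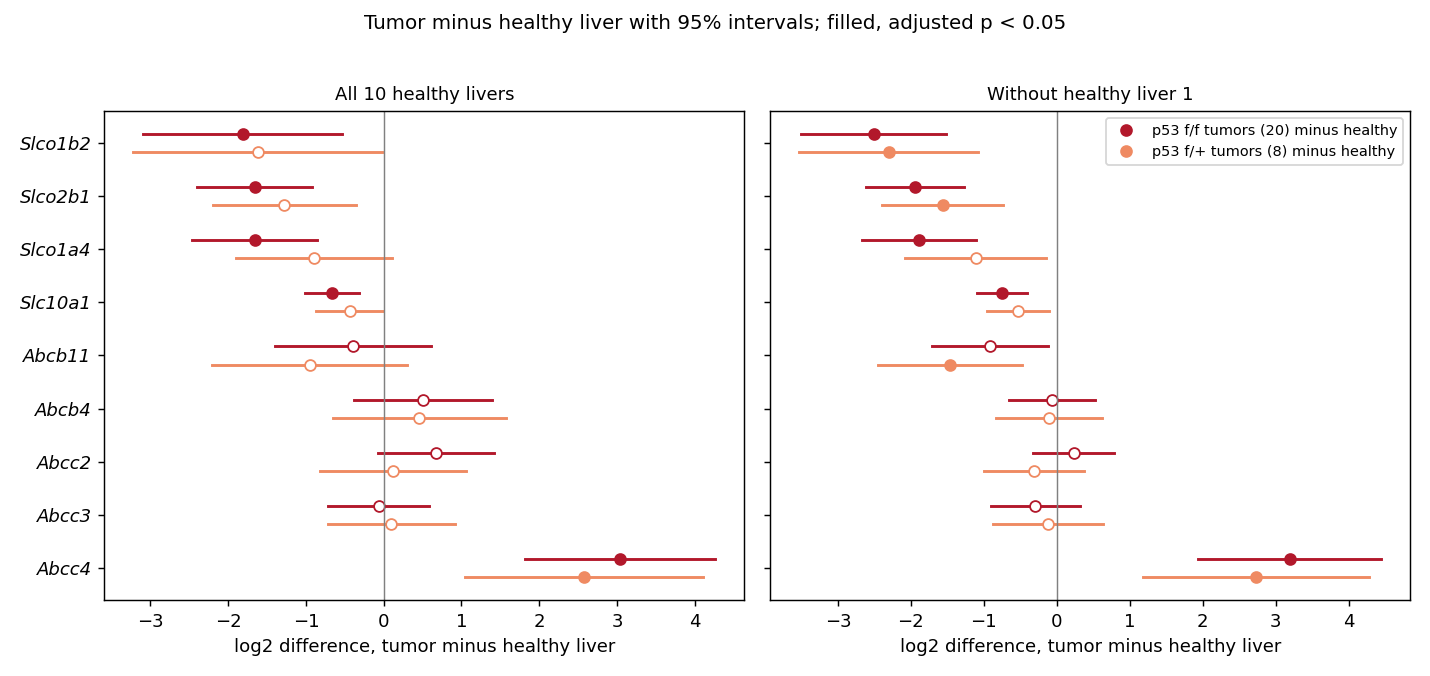
Fitted log2 difference from healthy liver (horizontal axis) of the 9 tested carriers in each tumor genotype, with 95% intervals, over all 10 livers (left) and without healthy liver 1 (right). Filled points passed an adjusted p-value of 0.05. Slco1b2, Slco2b1 and Abcb11 move further below 0 and Abcb4 comes close to 0 in both genotypes when that liver is left out, while Abcc4 stays near 3.

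The 38 fitted liver arrays lay on 8 chips, and only 1 chip held fitted tumors together with livers (liver tumors 28 and 29 and healthy livers 1 to 3). On it, the mean of the tumors minus that of livers 2 and 3 was -2.41 for Slco1b2, -1.08 for Slco2b1, 0.62 for Slco1a4 and 3.68 for Abcc4. With healthy liver 1 included these became -0.18, -0.31, 0.92 and 2.63, so the Slco1a4 difference did not hold within the chip in either form. The Abcc4 sizes within this chip rest in part on healthy liver 2, where Abcc4 was not detected (4.64, against 6.93 in healthy liver 3). On this chip Xist was detected in liver tumors 28 and 29 and in healthy liver 1, but not in healthy livers 2 and 3. Its part in the Slco1a4 difference within the chip was not tested. With chip as a fixed effect no member was called, with or without healthy liver 1, as that fit compares tumor and liver through this chip alone. There Abcc4 was at 2.91 ± 1.72 (limma adjusted p = 0.812) over all arrays and at 3.94 ± 1.77 (0.401) without healthy liver 1, while Slco1a4 and Slco1b2 changed sign over all arrays. Chip as a random block kept the 5 calls in liver tumors, but the Slco1b2 call in p53 f/f tumors was lost (-1.73 ± 0.67, limma adjusted p = 0.0518). Between tumors and livers, chip and group otherwise cannot be told apart.

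The joint pattern of uptake and export was then read in single tumors, by their place relative to healthy livers 2 to 10. Slco1b2 and Slco2b1 were both below all of these livers in 25 of 28 tumors, and in 22 of the 25 Abcc4 was also above all of them. The array labelled healthy liver 1 had this same pattern, with Abcc4 at 8.93. Against all 10 livers, 0 tumors were below for Slco1b2, 4 for Slco2b1 and 8 for Slco1a4. Counting these 3 carriers against livers 2 to 10, 10 tumors had all 3 below, 15 had 2, 2 had 1 and 1 had none. No tumor had any of the 3 above the livers. Liver tumor 15 (p53 f/+), with none, had 14.27 for Slco1b2, 11.69 for Slco2b1 and 8.20 for Slco1a4, all inside the healthy range, and still had Abcc4 at 10.38, above all livers. Higher Abcc4 thus occurred in a tumor whose uptake carriers lay within the healthy range.

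The reverse case was seen as well. In 4 tumors, all p53 f/f, Abcc4 was not above the healthy livers. It had 5.18 in liver tumor 24, 7.24 in tumor 23, 7.26 in tumor 2 and 7.93 in tumor 20. The first 3 had Slco1b2 at 9.87, 10.90 and 11.00, more than 3 log2 units below the lowest of healthy livers 2 to 10. These 4 tumors also held the 4 highest values of Mup3, a major urinary protein gene of mature hepatocytes, among the 28 tumors (12.51, 12.42, 10.94 and 13.19), a coincidence noticed after the values were seen. The next values, 10.90, 10.85 and 10.84 in tumors 17, 15 and 11, came with Abcc4 of 9.83, 10.38 and 11.22, so the 4th and 5th Mup3 values were close while Abcc4 was not.

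**Figure D3:**
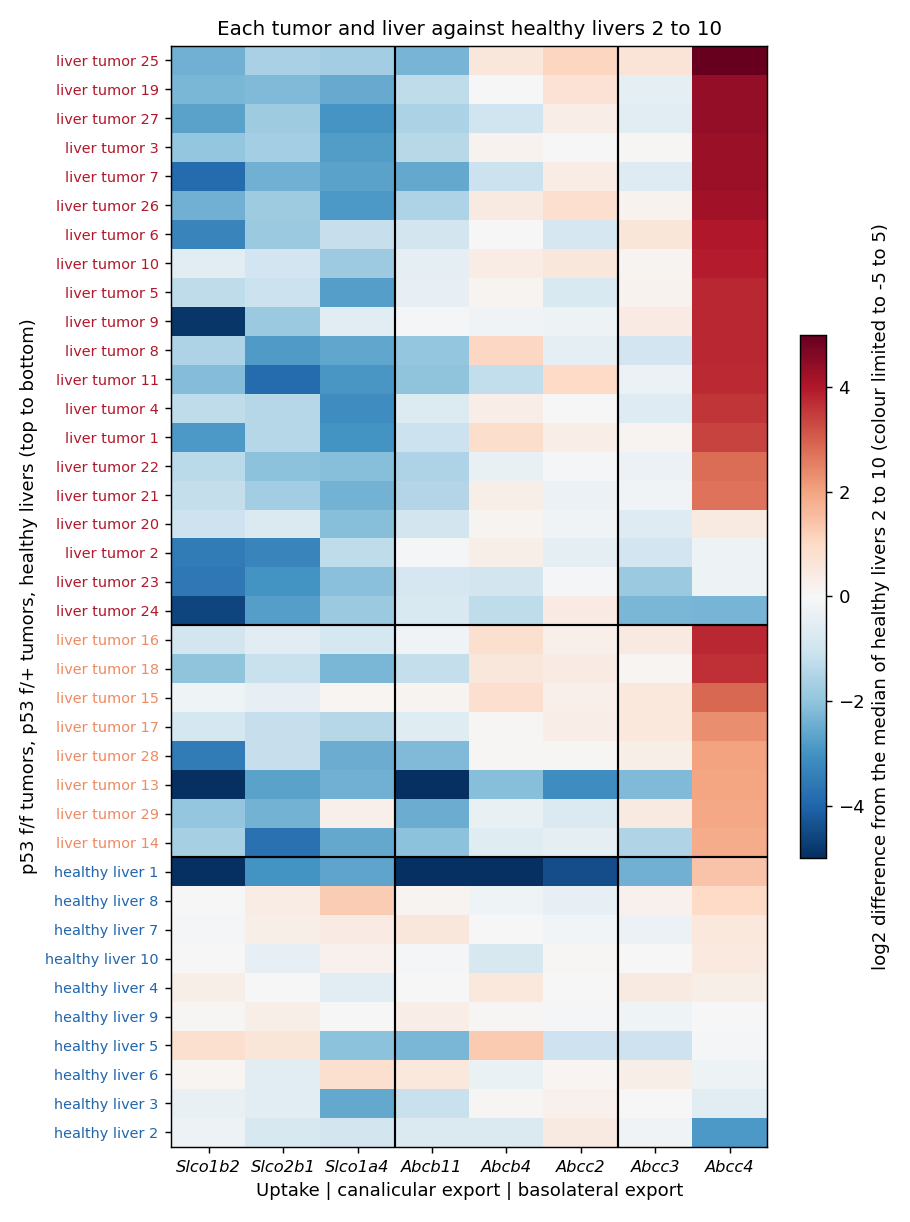
Log2 difference of each tumor and liver (rows) from the median of healthy livers 2 to 10 for 8 carriers (columns, grouped as uptake, canalicular export and basolateral export). Rows run from p53 f/f tumors at the top through p53 f/+ tumors to healthy livers, ordered by Abcc4 within each group. The uptake columns are blue in nearly all tumors, and healthy liver 1 is blue in 7 of the 8 columns. Outside 4 tumors the Abcc4 column is red, from 1.84 in liver tumor 14 (p53 f/+) to 5.10 in liver tumor 25 (p53 f/f).

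In 8 animals 2 tumors were profiled, and the tumors of 1 animal often differed. The absolute difference in Abcc4 had a median of 1.23 and reached 3.62, and it exceeded 1 log2 unit in 5 of 8 animals. Of the 4 tumors without high Abcc4, 3 had a second tumor from the same animal, with Abcc4 at 10.88 in tumor 1 (beside tumor 2), 10.30 in tumor 22 (beside tumor 23) and 10.20 in tumor 21 (beside tumor 20). Xist was detected in tumor 22 (8.51) and not in tumor 23 (4.58), which the labels give to the same animal. Median differences within animals were 1.09 for Slco1a4, 1.04 for Slco1b2 and 0.98 for Slco2b1, against 0.62 for Abcb11, 0.59 for Abcc3, 0.48 for Abcb4 and 0.09 for Abcc2. Abcc2 differed least, by at most 0.84 between 2 tumors of an animal.

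**Figure D4:**
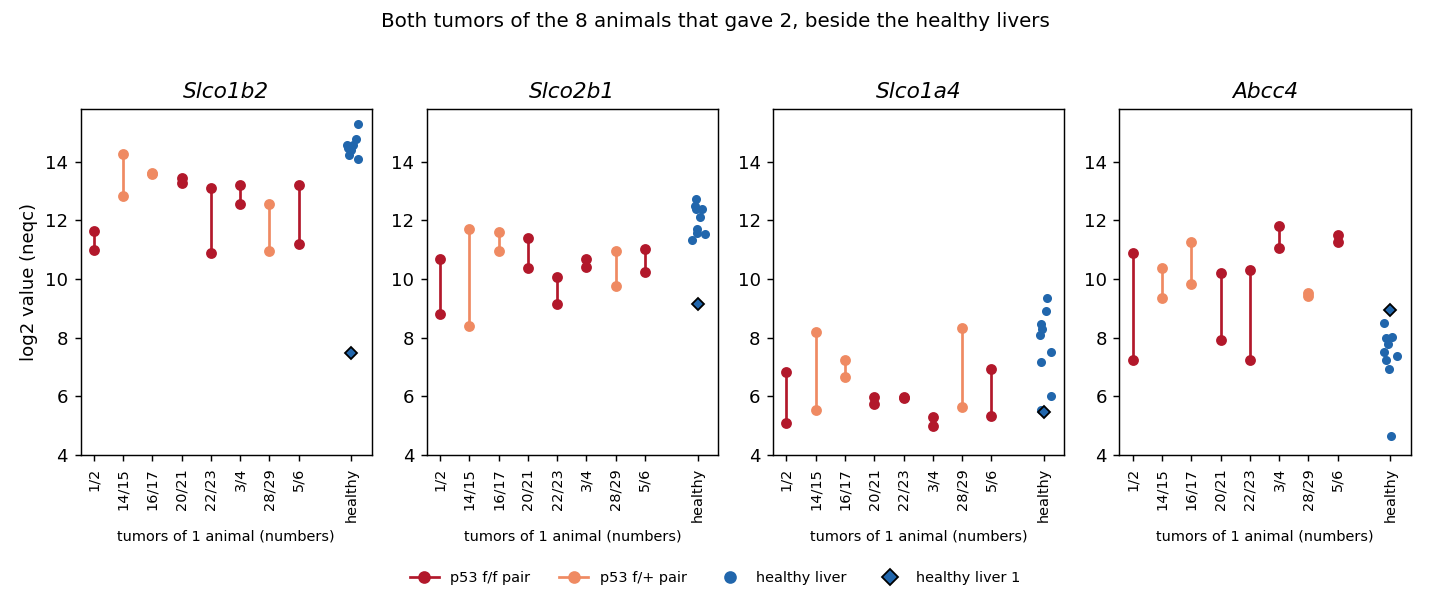
Log2 value (vertical axis) of Slco1b2, Slco2b1, Slco1a4 and Abcc4 in both tumors of each of the 8 animals that gave 2, joined by a line, with the healthy livers at the right and healthy liver 1 as a diamond. In 3 p53 f/f animals 1 tumor has Abcc4 near healthy liver and the other has it above 10.

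Other genes of bile handling gave the setting of these changes, again in all liver tumors against healthy liver. Among 21 other carriers and bile acid conjugating enzymes, 15 were tested, of which 2 were higher and 3 lower. Over all genes 14.7% were called higher and 14.2% lower, so these counts are near the shares of all genes. The median difference was 0.07 against -0.01 over all genes. Slc51b, the beta subunit of a basolateral bile acid exporter, averaged 9.86 in tumors and 6.06 in healthy livers, a difference of 3.79 ± 0.33 (limma adjusted p = 9.9e-11), and was above all 10 livers in 28 of 28 tumors. Its partner Slc51a was not tested. Abcc5, an exporter of cyclic nucleotides, was higher by 1.94 ± 0.26 (7.74e-07). Slc27a5 and Baat, the enzymes that activate and conjugate bile acids, were at -1.26 ± 0.48 (0.0459) and -1.05 ± 0.34 (0.018), and the exporter Abcc6 at -1.23 ± 0.38 (0.014). Without healthy liver 1 there were 4 higher and 5 lower, where 19.6% and 19% of all genes were called.

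Of 9 genes of bile acid synthesis, 8 were tested and 6 were lower, with a median of -1.13 (-1.42 without healthy liver 1, with the same number of calls). The share of all genes called lower was 14.2%, and 19% without that liver. Cyp8b1, the sterol 12-hydroxylase that shapes the bile acid pool, averaged 8.27 in tumors and 12.91 in healthy livers (-4.68 ± 0.82, adjusted p = 4.63e-05). Without healthy liver 1 all 28 tumors were below all livers. Cyp7a1, the rate-limiting enzyme of the classic pathway, averaged 8.15 in tumors and 11.45 in healthy livers (-3.29 ± 0.86, 0.00402), and Cyp7b1 of the alternative pathway was at -1.49 ± 0.50 (0.0217).

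Of 17 regulators of these carriers, 13 were tested, none was higher and 3 were lower (median -0.25), where 14.7% and 14.2% of all genes were called. Nr1i3, which encodes CAR, was at -1.70 ± 0.63 (adjusted p = 0.0402), Nr1h4, the bile acid receptor FXR, at -1.11 ± 0.27 (0.00211) and Keap1, the inhibitor of Nrf2, at -0.33 ± 0.12 (0.0418). Without healthy liver 1 there were 4 lower, against 19% of all genes. All 10 genes listed as targets of Nrf2, CAR and PXR were tested, of which 6 were higher and 1 lower (median 0.63), also without healthy liver 1. The higher ones were targets of Nrf2, led by Nqo1 at 1.68 ± 0.48 (0.00823), Srxn1 at 1.59 ± 0.39 (0.00252) and Gsta4 at 1.16 ± 0.24 (0.000453). The lower one was Cyp2b10, the usual marker of CAR activity, at -3.16 ± 0.84 (0.00462). Hmox1, Gstm1 and Cyp3a11 of the list were not called. In p53 f/+ tumors 4 of the 10 were called higher (Srxn1, Hmox1, Gsta4 and Gclm) and 0 lower, so Nqo1 was not called there.

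Markers of cell types were read in the same arrays. Over all genes 14.7% were called higher and 14.2% lower in liver tumors, and 19.6% and 19% without healthy liver 1. By genotype the shares were 15% and 14.1% in p53 f/f tumors and 7.65% and 5.04% in p53 f/+ tumors. Of the hepatocyte markers, 8 of 10 were tested and none was called, and their mean log2 level over the tested genes was 12.04 to 13.20 in p53 f/f tumors, 11.38 to 12.69 in p53 f/+ tumors and 10.25 to 12.76 in healthy livers, with healthy liver 1 the lowest. Without that liver Serpina1a, Apoc3 and Ttr were called lower. Of the macrophage and Kupffer cell markers, 4 of 9 tested were higher and none lower, and without healthy liver 1 Clec4f was called lower. Their mean level was 6.76 to 9.50 in p53 f/f tumors, 7.32 to 9.23 in p53 f/+ tumors and 6.99 to 8.52 in healthy livers. The neutrophil markers had 3 higher of 6 tested (3 in p53 f/f tumors and 1 in p53 f/+ tumors), with mean levels of 5.46 to 10.31, 5.85 to 7.19 and 5.14 to 6.09 in the same groups. Of 8 endothelial markers 2 were higher and 1 lower, with mean levels of 6.57 to 7.91, 7.31 to 9.84 and 6.25 to 7.48. By genotype, 1 was higher and 2 lower in p53 f/f tumors, against 5 higher and 1 lower in p53 f/+ tumors, and none was called between the genotypes. All tumors together had 3 higher and 2 lower without healthy liver 1, where Cdh5 and Eng were also called lower in p53 f/f than in p53 f/+ tumors. Of 8 stellate cell and fibroblast markers 3 were higher and 1 lower, with mean levels of 6.04 to 8.20, 7.55 to 10.08 and 6.77 to 7.55. Of the cholangiocyte markers 4 of 9 were tested and Sox9 was higher, with mean levels of 6.67 to 8.46, 6.73 to 9.25 and 5.91 to 9.01, healthy liver 1 being the highest liver. Keratin 19 (Krt19), which defines bile duct cells, averaged 4.87 in p53 f/f tumors, 6.44 in p53 f/+ tumors and 5.40 in healthy livers, and was not called in either genotype. The livers averaged 4.81 without healthy liver 1, and Krt19 was called higher in p53 f/+ tumors (1.67 ± 0.47, limma adjusted p = 0.00811), as was Krt7, and lower in p53 f/f than in p53 f/+ tumors (-1.61 ± 0.41, 0.0327). The lowest detected value averaged 5.52 on the liver arrays, and only the p53 f/+ mean of Krt19 was above it. These Krt19 calls thus set p53 f/+ tumors against levels near background, and their sizes are uncertain. Lymphocyte and thymocyte markers had 2 tested genes each and no call. The part of these cells in the carrier differences was not tested.

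T-ALL and thymus served as tissues without hepatocytes. Slco1b2 and Abcb11 were detected on none of the 14 thymic arrays, and Slco2b1, Abcb4, Abcc3 and Abcc4 were the members tested. T-ALL 5 was nearly blank and T-ALL 4 dim. Abcb4 had 4.63, 4.81 and 6.09 as lowest, median and highest value in T-ALL, against 6.37, 5.99, 6.18, 6.46 and 6.21 in thymi 1 to 5. It was lower in T-ALL by 1.07 ± 0.26 (limma adjusted p = 0.0121), the only call among the 4, where 9% of 10382 genes were called lower and 1.42% higher. The Abcb4 probe was detected in 5 of 5 thymi but in 3 of 9 T-ALLs, so it met the minimum of 5 arrays only through the thymi. The lowest detected value averaged 5.91 on the thymic arrays, above the T-ALL median, so the Abcb4 call adds little. Without T-ALL 4 and T-ALL 5 all 4 were called, 3 lower and 1 higher, against 25.9% and 20% of all genes. Slco2b1 was then at -1.68 ± 0.45 (0.0072), Abcb4 at -1.03 ± 0.27 (0.00633) and Abcc3 at -0.98 ± 0.30 (0.0158), and Abcc4 at 0.98 ± 0.21 (0.00178). Over all arrays Abcc4 was at 0.60 ± 0.44 (0.489) in T-ALL. The liver and thymic arrays were normalized separately, so the tissue differences were not set against each other by a test.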

How the data were processed

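Biotinylated cRNA was hybridized to Illumina mouse bead chips. The deposited table gives each probe a signal intensity with background already subtracted, and a detection score (1 less the p-value of detection). The authors also deposited log2 values, with column medians of 7.802 to 7.973. On each liver array they rank probes as the intensities do, their centring and background correction are unknown, and the submitters' processing notes name limma. Each array carries 1 sample, so directions are settled. 2 columns of 1 array without a sample label were not used, and liver tumor 12 has only log2 values.

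Intensities of 38 liver and 14 thymic arrays were processed separately with neqc (offset 16, detection p-values; limma 3.58.1, R 4.3.3). Of 45281 probes, 34885 had 1 gene symbol, 18 several and 10378 none in the annotation given, which can be old. Probes detected (p under 0.05) on at least 5 arrays were kept, 21108 in liver and 18141 in thymus, and the brightest kept probe per gene gave 11567 and 10382 genes. Probes were not checked for cross-hybridization within the Slco1a family. Group means were fitted with lmFit and eBayes (trend, robust), in liver with animal as random block (statmod 1.5.0, correlation 0.186, or 0.147 without healthy liver 1). Tests are two-sided, and p-values were adjusted by Benjamini-Hochberg over all genes with a threshold of 0.05. Fitted differences weight animals, so they differ slightly from differences of means. Signal over background and the number of arrays limit precision. The fits were tested on simulated data without an outlying liver, dim arrays or chip effects, so that test does not cover these features.

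All 10 members are named, with up to 3 genes each way per list (other carriers, regulators, targets, bile acid synthesis) and the cell type markers. Members and lists were chosen with earlier results of these data known. Alternatives changed the scaling, background correction, filter, probe choice, block, covariates and arrays, and 3 were added after seeing the data.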

Additional observations from a re-analysis of the deposited data

Results flagged for a closer look

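Within the groups of 4 to 10 samples, 9 of 26 gene and group combinations had 1 sample far from the others, where chance flags about 1 in 20. The genes were read on the same arrays, so these combinations are not independent and the excess over that rate is not a test. The array labelled healthy liver 1 was the low extreme of the livers for 6 genes, with 7.49 for Slco1b2 (next liver 14.09), 9.14 for Slco2b1 (11.33), 4.97 for Abcb11 (8.27), 6.27 for Abcb4 (11.17), 6.70 for Abcc2 (10.12) and 9.56 for Abcc3 (10.91). Healthy liver 2 had 4.64 for Abcc4, not detected, where the next liver had 6.93. Liver tumor 13, the dim array, had 8.05 for Abcc2 (next p53 f/+ tumor 10.42) and 5.96 for Slc10a1, which was not detected in any p53 f/+ tumor (next 5.28).

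Liver tumor 12, a p53 f/f tumor with only the authors' log2 values, entered no liver comparison of the report. On that scale its Abcc4 value was 9.48, above the highest healthy liver at 9.16. Its Slco2b1 (9.13) and Abcb11 (7.93) were below all 10 livers, and its Slco1b2 (8.60) lay below all other p53 f/f tumors, whose lowest was 9.61, but above healthy liver 1 (8.48).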

How the results depend on the processing

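With chip as a fixed effect, 0 members were called in any liver comparison, and 5 genes in liver tumors, 2 in p53 f/f tumors, 2 in p53 f/+ tumors and 0 between genotypes. There Slco1a4 and Slco1b2 changed sign in liver tumors (0.39 ± 1.04 and 0.24 ± 1.65) and in p53 f/f tumors (0.18 and 0.41). With healthy liver 1 also left out, a fit added after seeing the data, 0 members and 51, 36, 91 and 0 genes were called, and Slco1a4 was at 0.093 ± 1.10. In p53 f/+ tumors (1468 genes, 1 member) median scaling gave 706 genes and leaving out liver tumor 13 gave 961. A stricter detection limit, no animal block and averaged tumors each gave 2 members, healthy liver 1 and tumor 13 both left out gave 4, and Xist with healthy liver 1 left out gave 4 members and 2747 genes, the last 2 added after seeing the data. Between genotypes (55 genes) the authors' log2 values gave 1, no filter 28, no block 160, no tumor 13 gave 4, leaving out both tumors of 1 animal gave 25 (tumors 3 and 4), 33 (5 and 6), 125 (16 and 17) and 89 (20 and 21), and Xist without healthy liver 1 gave 278. In T-ALL (1081 genes, 1 member) median scaling gave 1867 genes and 3 members, the stricter limit 260 and 0, the authors' values 2 members, and no T-ALL 4 and 5 gave 4763 and 4. Leaving out each healthy liver, T-ALL or thymus, or all tumors of each animal, in turn gave 2890 to 4464 genes and 4 to 6 members in liver tumors, 2940 to 4374 and 4 to 5 in p53 f/f tumors, 961 to 2884 and 0 to 4 in p53 f/+ tumors, 4 to 240 and 0 to 0 between genotypes, and 780 to 3056 and 1 to 2 in T-ALL. The median gene difference under median scaling was 0.23 in liver tumors, 0.31 in p53 f/f tumors, 0.30 between genotypes and -0.65 in T-ALL, against -0.01, -0.01, 0.02 and -0.32 in the reported fits. The higher share of calls was then 86.2% against 50.8% in liver tumors, 89.8% against 51.4% in p53 f/f tumors, 77.1% against 60.3% in p53 f/+ tumors and 91.2% against 29.1% between genotypes. The cause of these shifts was not tested.

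The deviations of same-numbered samples correlated at -0.0796 to 0.158 over 10 pairs in liver and at -0.0779 to 0.14 over 5 in T-ALL. The best match carried the same number in 0 of 10 liver pairs and in 2 of 5 T-ALL pairs, too few to settle pairing in T-ALL. The replicate block gave 2873 genes in p53 f/f tumors, with Slco1b2 at an adjusted p of 0.0603, and 526 genes and 0 members in T-ALL.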
